A study of Mus musculus with 6 samples.

Results

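The 9 genes described here are Otc, Cps1, Ass1, Asl, Arg2, Oat, Aldh18a1, Prodh and Glud1. They encode enzymes on and around the route from glutamine-derived glutamate and proline to ornithine, citrulline and arginine in the small-intestinal epithelium. Among them, Glud1 breaks down glutamate and Arg2 breaks down arginine. The genes were chosen by name from the 23390 genes of the deposited table, and all 9 were among the 13740 genes with enough counts to be tested. RNA came from viable epithelial cells of the small intestine (C57BL/6 background), sorted as negative for the leukocyte protein CD45 and positive for the epithelial protein EpCAM. Libraries came from 3 Maf.flox controls, which carry the floxed Maf gene and no Cre, and from 3 Vil.Cre Maf.flox mice, in which Cre under the villin promoter deletes Maf, the gene of the transcription factor c-Maf, in intestinal epithelium. The former are called controls and the latter Maf-deleted libraries. Mouse age and sex were not labelled, and no group carried Cre without floxed Maf. The labels also do not say whether each library is a separate mouse. The p-values here therefore set the genotype difference against the spread between libraries, which may not be that between mice.

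Enterocytes take glutamine from the lumen and the blood and use it as fuel. Part of its nitrogen leaves the gut as citrulline, from which the kidney makes arginine for the body. In the mitochondrion glutamate and proline meet at pyrroline-5-carboxylate, which becomes ornithine, and ornithine joins carbamoyl phosphate to form citrulline. Enterocytes of suckling rodents also turn citrulline into arginine, and this capacity is known to wane around weaning, when intestinal arginase appears.

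Total counts ran from 17464355 to 24802525 per library. Maf had 3893 to 9398 counts in the Maf.flox libraries and 1 to 16 after deletion. The epithelial markers Epcam, Vil1, Krt8 and Cdh1 together had 10940.3 to 14171 CPM (counts scaled to library size by the TMM method), and the 5 stromal and endothelial markers found in the table had at most 0.94 CPM. Control replicate 3 stood apart from the other controls in 7 villus enterocyte markers, with 6933 CPM against 16523 and 15606. The 5 Paneth cell markers differed between all controls, with 4329.8, 13936 and 25148 CPM in replicates 1, 2 and 3. Control replicate 2 was the highest control in enteroendocrine markers (701 CPM against 352 and 223) and in tuft markers (57.4 CPM against 28.4 and 14.5). By their Xist and Y-linked counts, 1 control and 2 Maf-deleted libraries were male and the rest female.

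The level of each enzyme RNA was first set side by side per gene length, as FPKM (counts scaled to gene length and library size). Oat, ornithine aminotransferase, stood highest at 804 ± 127 FPKM (SD over all 6 libraries). Cps1, which makes carbamoyl phosphate from ammonia, followed at 228 ± 39.4 FPKM and Glud1, glutamate dehydrogenase, at 122 ± 29.8 FPKM. Arg2, the mitochondrial arginase, had 77.6 ± 17.6 FPKM and Aldh18a1, which makes pyrroline-5-carboxylate from glutamate, 68.7 ± 6.13 FPKM. Otc, ornithine transcarbamylase, which forms citrulline, had 51.3 ± 3.66 FPKM, and Prodh, proline dehydrogenase, had 13.2 ± 1.96 FPKM. The enzymes that turn citrulline into arginine stood lowest, with argininosuccinate lyase, Asl, at 7.58 ± 0.476 FPKM and argininosuccinate synthetase, Ass1, at 2.69 ± 0.626 FPKM. Among neighbours in this order, Glud1 overlapped Arg2 over the libraries, although Glud1 was the higher in 6 of 6, and Arg2 overlapped Aldh18a1. The other neighbours did not overlap.

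**Figure D1:**
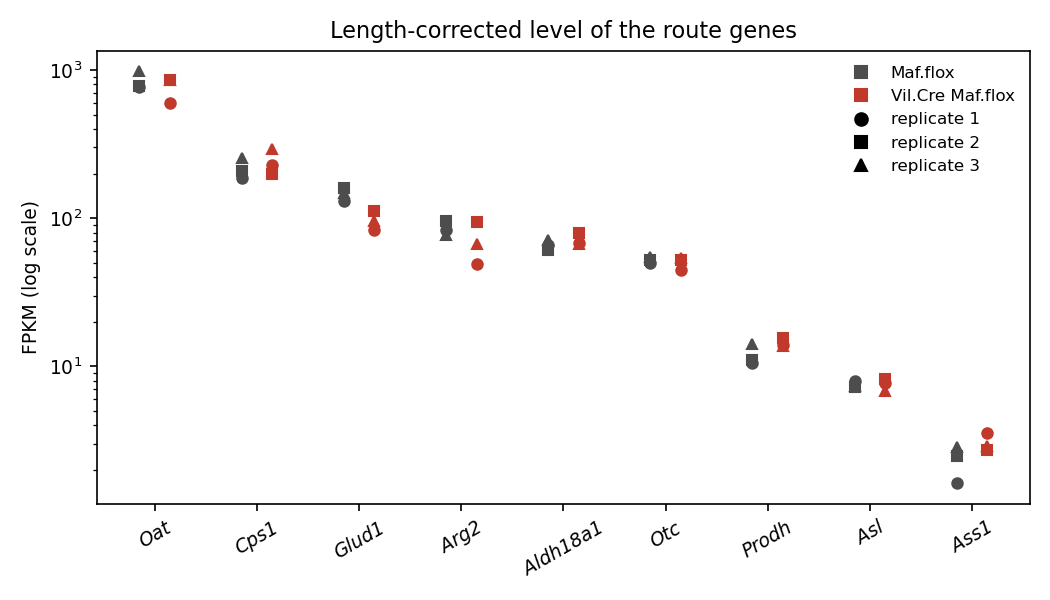
FPKM of the 9 enzyme genes on a log axis, from the highest to the lowest, with 1 point per library, grey for Maf.flox and red for Vil.Cre Maf.flox and shapes for the replicate number. Oat sits between 598 and 978 FPKM and Ass1 between 1.63 and 3.54 FPKM, and the order of the genes spans both genotypes.

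These levels place the citrulline-forming enzymes well above the arginine-forming ones in every library. Otc FPKM was 30.5, 21 and 19.1 times that of Ass1 in control replicates 1, 2 and 3 and 12.6, 19.1 and 18.6 times in Maf-deleted replicates 1, 2 and 3. The highest ratio was that of control replicate 1, whose Ass1 level was the lowest. This ratio was not planned, and the level of Ass1 is uncertain because of a pseudogene described below. The planned ratio of Asl to Ass1 was 3.49 ± 1.25 in the controls and 2.5 ± 0.415 after deletion, with overlap. Cps1 FPKM was 4.14 ± 0.472 times that of Otc in the controls and 4.78 ± 0.874 times after deletion (SD, n = 3 each), and the libraries of the groups overlapped. Arg2 FPKM was 0.103 ± 0.0224 and 0.0901 ± 0.017 times that of Oat, again with overlap.

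Setting the Maf-deleted libraries against the controls asked whether deletion of Maf in the epithelium goes with other levels of these enzymes. For 8 of the 9 enzymes the libraries of both genotypes overlapped, while Glud1 was lower in all 3 Maf-deleted libraries than in any control. At an adjusted p of 0.05 in edgeR (quasi-likelihood, Benjamini-Hochberg over all genes), 0 of the 9 genes passed, where 0.546% of all genes tested passed. Glud1 alone had an unadjusted p under 0.05, a level that 16.4% of all genes reached. DESeq2 called 1 of the 9, again Glud1, where it called 5.64% of its genes, and limma-voom called 0. None of the 9 had all Maf-deleted libraries above all controls, which 10.1% of all genes had. The log2 fold changes, given throughout as Vil.Cre Maf.flox over Maf.flox, ran from -0.60 to 0.39, with 4 above and 5 below 0. Their median was -0.01, the same as over all genes tested, and their median absolute size was 0.14 against 0.17 over all genes.

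**Figure D2:**
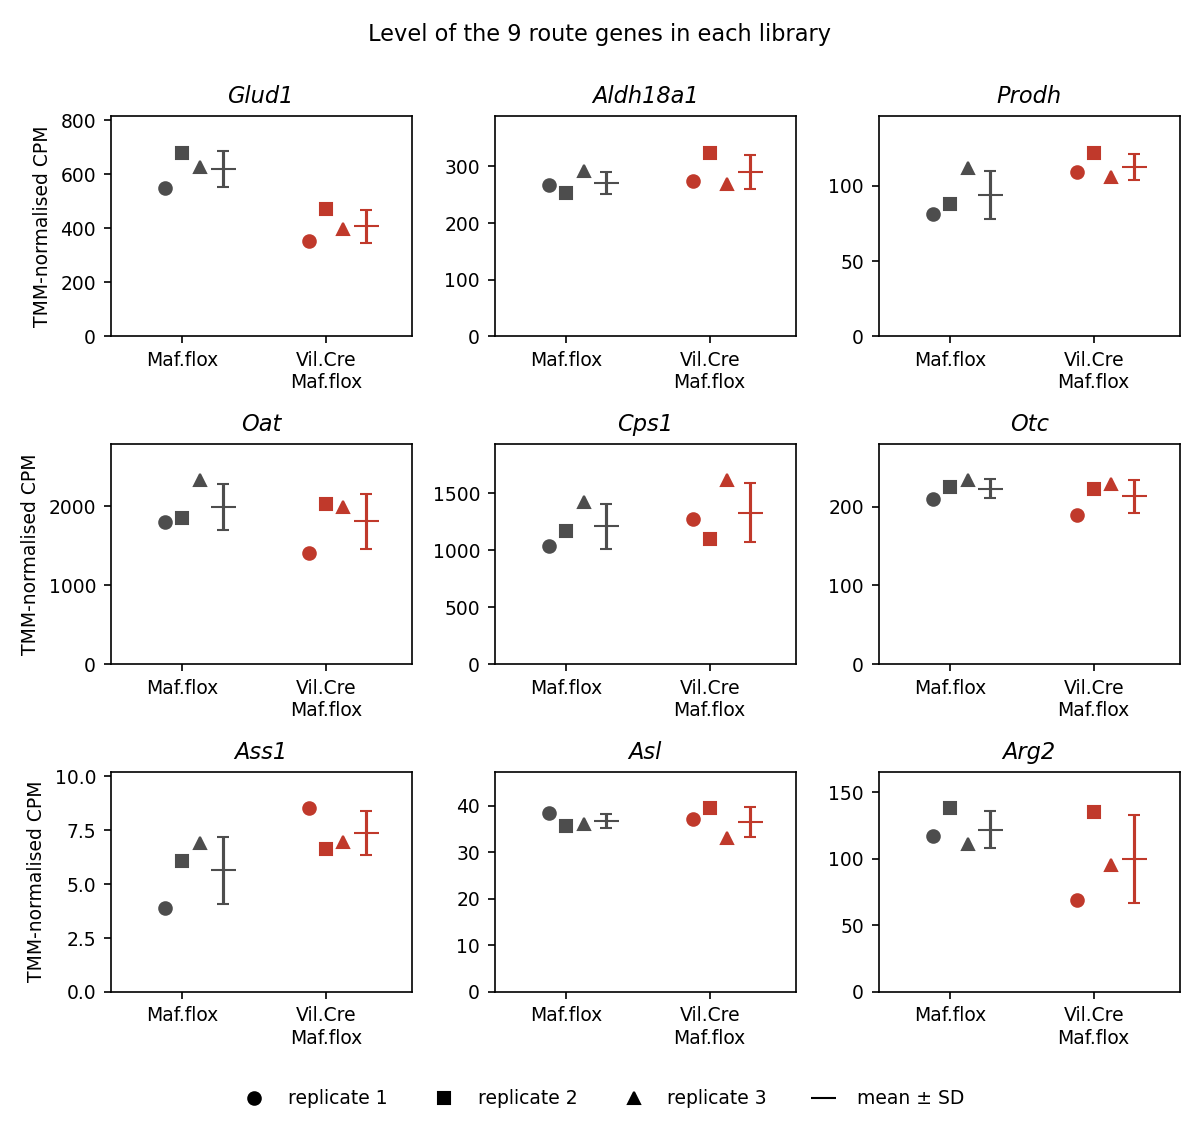
TMM-normalised CPM of each enzyme gene in each library on axes that start at 0, with Maf.flox in grey, Vil.Cre Maf.flox in red, a shape for each replicate number, and the mean with SD beside the points. Only in the Glud1 panel do the groups not overlap, with 548 to 679.8 CPM against 352 to 473 CPM.

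Glud1 (chromosome 14, 34310727 to 34345265, plus strand, GRCm38) encodes the mitochondrial enzyme that deaminates glutamate to 2-oxoglutarate and ammonia. It had 548, 679.8 and 628 CPM in control replicates 1, 2 and 3 and 352, 473 and 398 CPM in Maf-deleted replicates 1, 2 and 3. The groups did not overlap, as for 10.5% of all genes in this direction. The mean was 619 ± 66.2 CPM in the controls and 408 ± 61.3 CPM in the Maf-deleted libraries (SD, n = 3 each). Its log2 fold change was -0.60 (SE 0.145, 95% interval -0.93 to -0.27), or 0.659 times the control level (adjusted p = 0.0995, edgeR). Ranked by p it was the 372nd of 13740 genes, and 11.4% of genes had a larger absolute log2 fold change. DESeq2 and edgeR without the filter on low counts called it, with adjusted p of 0.00327 and 0.0355. The unfiltered fit called 1.58% of all genes, and a fit with a replicate block, which also called Glud1, 3.2%. Its adjusted p ran from 0.00327 to 0.406 over 15 alternative fits.

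Of 7 villus enterocyte markers, 6 lay below 0, with a median log2 fold change of -1.23. Of these markers 0 were called, against 0.546% of all genes tested. Their sums were 6933 to 16523 CPM in the controls and 4629 to 8469 CPM in the Maf-deleted libraries. Low medians were not particular to villus markers, with -1.53 for 5 tuft, -1.12 for 5 Paneth and -0.60 for 5 enteroendocrine markers. For 4 stem and 6 goblet markers the medians were -0.30 and -0.28, and for 3 cycling and 4 epithelial markers 0.02 and -0.03. The part of cell content, of villus or other cells, in the level of Glud1 was not tested. In bulk RNA, fewer cells of a type and less RNA per cell cannot be told apart. Control replicate 3, the lowest control in villus markers and the highest in Paneth markers, had 628 CPM of Glud1. The other controls had 548 and 679.8 CPM. Without control replicate 3 the log2 fold change of Glud1 was -0.59. The part of cell content in these values was not tested. Glud-ps, a processed pseudogene with 97.561% identity to Glud1 over 656 aligned bases, had 23 to 47 counts per library against 6936 or more for Glud1, and the sum of both was 621 ± 66.3 and 409 ± 61.2 CPM in the controls and the Maf-deleted libraries.

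Aldh18a1 and Prodh lead to pyrroline-5-carboxylate from opposite sides, from glutamate and from proline. Aldh18a1 (chromosome 19, 40550257 to 40588463, minus strand, GRCm38, as for all loci here) had 267, 253 and 292 CPM in the controls and 275, 324 and 269 CPM in Maf-deleted replicates 1, 2 and 3, and the groups overlapped. Its log2 fold change was 0.10 (SE 0.117, 95% interval -0.17 to 0.36, adjusted p = 0.742, edgeR). Prodh (chromosome 16, 18060357 to 18090203, minus strand) had 81.5, 87.9 and 112 CPM in the controls and 109, 122 and 106 CPM in the Maf-deleted libraries. Control replicate 3 alone lay within the range of the other genotype. Prodh had a log2 fold change of 0.26 (SE 0.133, 95% interval -0.04 to 0.56, adjusted p = 0.378, edgeR). Without control replicate 3 it was 0.41, with an adjusted p of 0.0791. Prodh shares no exon bases with another annotated gene, though its body overlaps that of Dgcr6 on the other strand.

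Oat (chromosome 7, 132557478 to 132576398, minus strand) moves an amino group between glutamate and ornithine and so joins pyrroline-5-carboxylate to ornithine. It had 1795, 1848 and 2326 CPM in control replicates 1, 2 and 3 and 1409, 2031 and 1993 CPM in Maf-deleted replicates 1, 2 and 3. Maf-deleted replicate 1 was the lowest library and the other 2 of its group lay within the control range. On the log2 scale the difference was -0.14 (SE 0.184, 95% interval -0.55 to 0.28, adjusted p = 0.775, edgeR), and 0.02 without that library.

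Cps1 and Otc complete citrulline in the mitochondrion. Cps1 (chromosome 1, 67123026 to 67231259, plus strand) had 1035, 1169 and 1424 CPM in the controls and 1274, 1101 and 1613 CPM in Maf-deleted replicates 1, 2 and 3. Replicate 3 was the highest of each group and the groups overlapped. This gave a log2 fold change of 0.14 (SE 0.183, 95% interval -0.28 to 0.55, adjusted p = 0.771, edgeR), and -0.03 without Maf-deleted replicate 3.

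Otc (chromosome X, 10252305 to 10321024, plus strand, GRCm38) varied little between libraries, with 209.7, 225 and 233 CPM in the controls and 189, 222 and 228 CPM in Maf-deleted replicates 1, 2 and 3. The groups overlapped, and Maf-deleted replicate 1 was the lowest library. Otc had a log2 fold change of -0.06 (SE 0.111, adjusted p = 0.838, edgeR), with a 95% interval for the fold from 0.805 to 1.14. A decrease of Otc as large as that measured for Glud1, 0.659 times, lies outside this interval. Otc and Cps1 are also major liver genes. The 3 hepatocyte markers found in the table, Alb among them, summed to between 0.203 and 1.41 CPM in all libraries, against 189 CPM or more for Otc.

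The bases before the annotated start sites of Glud1, whose groups did not overlap, of Otc, whose level was steady, and of Prodh, which had the lowest p after Glud1, are printed from RefSeq (GRCm38.p6). Each line gives 250 bases on the gene's strand, 5′ to 3′ and ending just before the start site. The promoter table used here gave 6 of the 9 genes, and the windows of Cps1, Asl and Arg2 were not analysed here. Capitals mark TGCTGA, or its reverse complement TCAGCA, the flanking element that Maf proteins recognise.
Glud1, chr14:34310477-34310726, plus strand: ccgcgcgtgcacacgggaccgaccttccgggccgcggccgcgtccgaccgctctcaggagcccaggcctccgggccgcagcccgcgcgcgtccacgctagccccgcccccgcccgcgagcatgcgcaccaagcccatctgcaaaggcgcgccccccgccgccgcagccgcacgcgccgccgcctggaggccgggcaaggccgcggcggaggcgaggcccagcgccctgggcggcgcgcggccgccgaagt
Otc, chrX:10252055-10252304, plus strand: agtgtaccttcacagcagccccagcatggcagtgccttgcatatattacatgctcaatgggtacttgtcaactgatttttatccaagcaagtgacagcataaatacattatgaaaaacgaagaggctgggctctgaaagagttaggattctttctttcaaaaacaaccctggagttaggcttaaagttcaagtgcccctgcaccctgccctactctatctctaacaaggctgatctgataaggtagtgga
Prodh, chr16:18089191-18089440, minus strand: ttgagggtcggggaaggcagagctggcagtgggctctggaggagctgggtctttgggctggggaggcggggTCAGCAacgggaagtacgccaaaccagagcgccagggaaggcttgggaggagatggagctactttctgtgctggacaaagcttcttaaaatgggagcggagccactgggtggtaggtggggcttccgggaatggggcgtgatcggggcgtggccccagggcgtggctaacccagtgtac
The Glud1 window is 82% G and C, that of Prodh 63.2% and that of Otc 43.6%. TGCTGA, searched on both strands, was in 2 of the 6 windows, those of Prodh and Aldh18a1, and in 16.1% of 32841 promoter windows of the same length. In Prodh it lies 179 to 174 bases before the start site. The longer palindromic Maf recognition elements with a TRE or a CRE core, each of which holds TGCTGA, and the HNF4 motif CAAAGTCCA were in none of the 6. A match is a description of these letters and not a bound site. The RefSeq start of Prodh lies within the gene as the deposited table gives it, which reaches to 18090203.

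Ass1 and Asl turn citrulline and aspartate into arginine. Ass1 (chromosome 2, 31470207 to 31520672, plus strand) had 3.91, 6.09 and 6.92 CPM in the controls and 8.52, 6.64 and 6.97 CPM in Maf-deleted replicates 1, 2 and 3, from 93 to 168 counts per library. Control replicate 1 was the lowest and Maf-deleted replicate 1 the highest, and the groups overlapped. Its log2 fold change was 0.39 (SE 0.238, 95% interval -0.15 to 0.93, adjusted p = 0.46, edgeR), and 0.19 without control replicate 1. The level of Ass1 is uncertain, since the processed pseudogene Gm5424 on chromosome 10 shares 1240 aligned bases with it at 99.516% identity and had 59 to 96 counts per library of its own. The sum of Ass1 and Gm5424 was 8.94 ± 2.32 CPM in the controls and 11.5 ± 1.69 CPM in the Maf-deleted libraries (SD, n = 3 each).

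Asl (chromosome 5, 130011258 to 130029247, minus strand) had 38.5, 35.7 and 36.2 CPM in the controls and 37.1, 39.5 and 33 CPM in the Maf-deleted libraries, the narrowest spread of the 9 genes. Asl had a log2 fold change of -0.01 (SE 0.103, adjusted p = 0.972, edgeR), with a 95% interval for the fold from 0.844 to 1.17.

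Arg2 (chromosome 12, 79130777 to 79156301, plus strand) splits arginine into ornithine and urea. It had 117, 138 and 111 CPM in the controls and 69.4, 135 and 95.4 CPM in Maf-deleted replicates 1, 2 and 3. Maf-deleted replicates 1 and 3 were below all controls and replicate 2 within their range. On the log2 scale the difference was -0.29 (SE 0.224, 95% interval -0.81 to 0.23, adjusted p = 0.579, edgeR). It was -0.55 without Maf-deleted replicate 2 and -0.08 without replicate 1 of that group, so that single libraries set its size. Exons of Arg2 overlap those of Vti1b on the other strand by 285 bases, and strand use in counting is not given in the sources used here. Depending on the counting, Arg2 may have gained Vti1b reads from these bases or lost reads of its own there. The deposited length of Arg2 is 1428 bases, most of which lie outside the overlap. Vti1b itself had 1656 to 2293 counts per library and a log2 fold change of 0.02. Leukocytes can hold arginase, and the CD45-negative sort is meant to remove them. The 7 leukocyte markers found in the table summed to 8.24 to 10.3 CPM in the controls and 12 to 16.6 CPM in the Maf-deleted libraries, a difference carried by Itgam, with 5.72 to 7.49 CPM and 10.8 to 15.3 CPM. Ptprc, the gene of CD45, had 0.285 to 2.29 CPM in the controls and 0.101 to 0.587 CPM in the Maf-deleted libraries. Lyz2 had at most 0.521 CPM, and Cd3e, Cd79a and Itgax at most 0.19 CPM, in any library. Jchain, a plasma cell gene, reached 3.93 CPM in Maf-deleted replicate 2 and at most 1.18 CPM in the others. The part of leukocytes in the level of Arg2 was not tested.

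**Figure D3:**
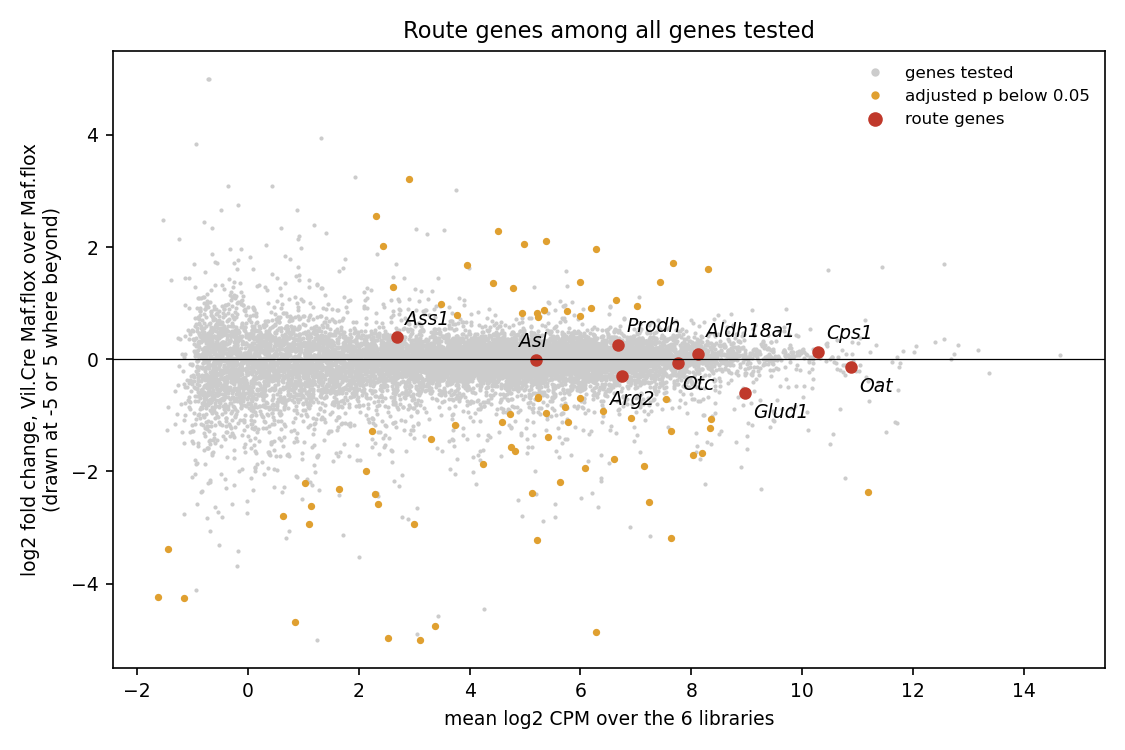
Log2 fold change of each of the 13740 genes tested against its mean log2 CPM over the 6 libraries, with the 75 genes past an adjusted p of 0.05 in orange and the 9 enzyme genes in red. The enzyme genes lie between -0.60 (Glud1) and 0.39 (Ass1), within the cloud of genes that were not called.

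Other genes of the pathway were taken from 6 lists. Those named by rule and reported here are shown with the route enzymes in the plot of log2 fold changes with their intervals. Of 12 glutamine and glutamate enzymes tested, 0 passed over all genes by edgeR, against 0.546% of all genes, 6 had an unadjusted p under 0.05 and 5 had groups without overlap, which 20.6% of all genes had in either direction. Their median log2 fold change was 0.05, with 8 above and 4 below 0. DESeq2 called 2 of the 12, against 5.64% of all its genes, and limma-voom 0, as limma-voom did in each of the 6 lists. Asns, asparagine synthetase, which uses glutamine, stood at 0.83 and the cytosolic aspartate aminotransferase Got1 at 0.38, both without overlap and neither called by edgeR. DESeq2 called Asns with an adjusted p of 0.0195. Maf-deleted replicate 1 had 82.2 CPM of Asns against 52 and 41.2 CPM in replicates 2 and 3. Without that library the log2 fold change of Asns was 0.51 (adjusted p = 0.446, edgeR). The alanine aminotransferase Gpt and the pyrroline-5-carboxylate reductase Pycrl had values of -0.33 and 0.01.

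Mitochondrial carriers supply the route with its substrates. Of 5 tested, 0 passed by edgeR, 1 had an unadjusted p under 0.05, against 0.546% and 16.4% of all genes, and the median was -0.20. DESeq2 called 1 of the 5, the same gene, and 5.64% of all its genes. That carrier was Slc25a15, which exchanges ornithine for citrulline across the inner membrane. It had 226, 248 and 202 CPM in the controls and 145, 149.7 and 149 CPM in the Maf-deleted libraries. The groups did not overlap, as for 10.5% of all genes in this direction. Control replicate 3, the control with few villus markers, was the lowest control. The part of cell content, of villus or other cells, was not tested. Slc25a15 had a log2 fold change of -0.61 (SE 0.107, adjusted p = 0.054, edgeR). DESeq2, edgeR without the filter and edgeR with upper quartile scaling called it, with adjusted p of 7.27e-05, 0.0133 and 0.0441, and so did the fit without control replicate 3 (0.00959). The glutamate carrier Slc25a22 had a log2 fold change of -0.49 and the aspartate-glutamate carrier Slc25a13 one of -0.20, neither called. Without control replicate 3, whose Slc25a22 level of 60.4 CPM was the lowest of all libraries, Slc25a22 stood at -0.75 with an adjusted p of 0.00921.

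Of 12 plasma membrane carriers of glutamine, glutamate, citrulline and arginine tested, 1 fell and 0 rose over all genes by edgeR, 6 had an unadjusted p under 0.05 and 6 had no overlap. Over all genes these shares were 0.546% called, 16.4% under 0.05 and 20.6% without overlap. The median was -0.47, with 7 below and 5 above 0. DESeq2 called 6 of the 12, all lower and Slc3a2 among them, and 5.64% of all its genes. Slc3a2, the heavy chain that the basolateral exchangers Slc7a7 and Slc7a8 need, fell from 239 ± 22.9 to 146 ± 12.1 CPM (SD, n = 3 each). Its libraries held 241, 261 and 216 CPM against 143, 159.9 and 137 CPM. The log2 fold change of Slc3a2 was -0.71 (SE 0.115, adjusted p = 0.044, edgeR), and the call was lost with limma-voom (adjusted p = 0.0607), with a term for sex (0.0529) and when any library other than control replicate 3 was left out (0.0768 to 0.235).

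Slc7a9, the light chain of the apical exchanger that takes up arginine and cystine, and Slc7a8 had log2 fold changes of -1.09 and -0.93, with adjusted p of 0.0576 and 0.0736 by edgeR. Slc7a9 had 262, 217 and 156 CPM in the controls and 98.7, 115 and 85.6 CPM in the Maf-deleted libraries. Another 3 carriers were picked after their values were seen. The apical neutral amino acid carrier Slc6a19 had 456, 478 and 154 CPM in the controls and 61.5, 46.7 and 29.6 CPM in the Maf-deleted libraries, with a log2 fold change of -2.98 and an adjusted p of 0.0762 by edgeR. Slc7a7 and Slc3a1, the partner of Slc7a9, stood at -0.94 and -0.91 with adjusted p of 0.0795 and 0.148 by edgeR. DESeq2, which called 5.64% of all its genes, called each of these 5 carriers. Slc3a1 was 97.6 CPM in control replicate 3 and 97.7 CPM in Maf-deleted replicate 2, so its groups overlapped. Exons of Slc7a7 and Slc3a1 overlap those of Oxa1l and Prepl on the other strand by 232 and 601 bases. For Slc3a2, Slc6a19, Slc7a9, Slc7a7 and Slc3a1, control replicate 3, the control with few villus markers, was the lowest control. The part of cell content, of villus or other cells, in these carrier values was not tested.

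**Figure D4:**
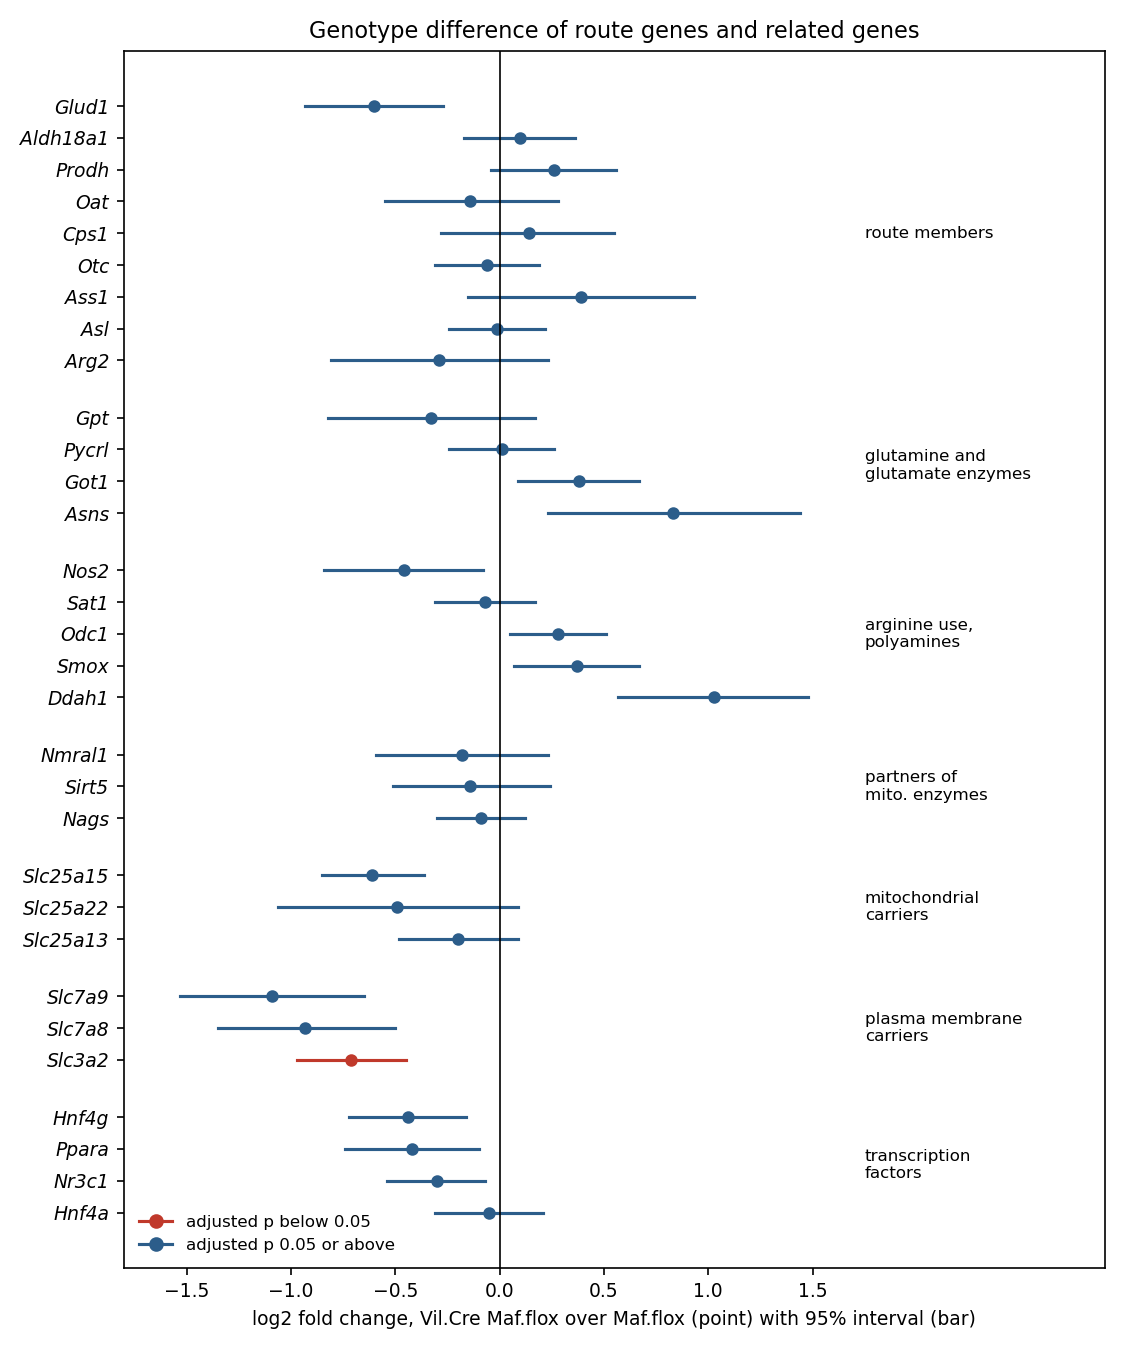
Log2 fold change of Vil.Cre Maf.flox over Maf.flox with its 95% interval, in red where the adjusted p was below 0.05. Drawn are the 9 enzyme genes and the reported genes that the naming rule took from 6 related lists. Slc6a19, Slc7a7, Slc3a1 and Arg1, named after their values were seen, are not drawn. Slc3a2 at -0.71 is the single red gene. Glud1, Slc25a15, Slc7a9, Slc7a8, Nos2, Hnf4g, Nr3c1 and Ppara have intervals that lie below 0 and adjusted p above 0.05. Ddah1, Asns, Got1, Smox and Odc1 have intervals that lie above 0 and adjusted p above 0.05.

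Of 15 tested genes of arginine use and polyamine synthesis, 0 passed by edgeR, 4 had an unadjusted p under 0.05 and 4 had no overlap, with a median of 0.22. Over all genes 0.546% passed, 16.4% had such a p and 20.6% had no overlap. DESeq2 called 1 of the 15, and 5.64% of all its genes. Ddah1, which degrades methylated arginines, had 52.8, 38.4 and 31.6 CPM in the controls and 88.5, 92.3 and 69.4 CPM in the Maf-deleted libraries, with no overlap. Ddah1 had a log2 fold change of 1.03 (SE 0.196, adjusted p = 0.0708, edgeR), and DESeq2, edgeR without the filter, edgeR with upper quartile scaling and the fit with a term for sex called it (adjusted p = 9.51e-05, 0.0275, 0.0441 and 0.0296). Without control replicate 1 or 3 it was also called, at 1.26 and 0.87. Odc1, ornithine decarboxylase, which takes ornithine to polyamines, and the spermine oxidase Smox had values of 0.28 and 0.37, and the inducible nitric oxide synthase Nos2 one of -0.46. Sat1, which acetylates polyamines, stood at -0.07. Arg1, the cytosolic arginase of liver, which was named outside the rule after its values were seen, had a mean of 0.802 CPM in the controls and 1.06 CPM in the Maf-deleted libraries.

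Partners of the mitochondrial enzymes gave small values, with 0 of 5 tested genes called, 0 with an unadjusted p under 0.05 by edgeR, and 0 called by DESeq2 or limma-voom. All 5 lay below 0, with a median of -0.11, and 1 of them, Sirt5, had no overlap. Over all genes 0.546% were called by edgeR, 16.4% had such a p, 5.64% were called by DESeq2 and 20.6% had no overlap. Nags, which makes the N-acetylglutamate that Cps1 needs, had a log2 fold change of -0.09 (SE 0.0904, adjusted p = 0.681, edgeR), the desuccinylase Sirt5 one of -0.14 and Nmral1, an NADPH sensor that binds argininosuccinate synthetase, one of -0.18. Of 7 transcription factors in a list drawn up around urea cycle genes in liver, 0 passed by edgeR and 1 by DESeq2. In that list 4 had an unadjusted p under 0.05 and 5 had no overlap. The shares over all genes were 0.546%, 5.64%, 16.4% and 20.6%. All 7 lay below 0, with a median of -0.30. Hnf4a had 1139 to 1152 CPM in the controls and 1074 to 1118 CPM in the Maf-deleted libraries, with no overlap, and a log2 fold change of -0.05 (adjusted p = 0.864, edgeR). Hnf4g, Ppara and the glucocorticoid receptor Nr3c1 had values of -0.44, -0.42 and -0.30, with no overlap and adjusted p of 0.142, 0.191 and 0.198 by edgeR. DESeq2 called Hnf4g with an adjusted p of 0.0393, as did the fit without control replicate 3 (0.0221).

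How alike the 9 genes were across libraries was measured by their profiles. On centred log2 CPM, the smallest root mean square difference between 2 of the 9 genes was 0.0989, for Asl and Aldh18a1, and the largest 0.592, for Ass1 and Arg2. Otc and Oat differed by 0.129 and Otc and Cps1 by 0.211. Maf-deleted replicate 1 held the lowest level of Otc, Oat, Arg2 and Glud1, and the highest of Ass1. Among 8880 genes of at least 10 CPM, those nearest to Otc over the 6 libraries were Smim11, Taf5, Pip4p2, Sirt3 and Foxn2, at differences of 0.0244 to 0.0348. Of these candidates 54.3% lay within 0.2 of Otc.

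Sex was not balanced between the genotypes and Otc is X-linked. Within males (1 control, 2 Maf-deleted) and within females (2 and 1), the log2 difference of Glud1 was -0.43 and -0.71. That of Prodh was 0.50 and 0.10, and that of Ass1 0.93 and 0.10, each comparison with a genotype of a single library. Arg2 stood at -0.28 and -0.38 and Cps1 at 0.19 and 0.32. With sex as a term, the log2 fold change of Glud1 was -0.56 (adjusted p = 0.127, edgeR), that of Cps1 0.26 (adjusted p = 0.366) and that of Otc -0.02 (adjusted p = 0.949), and 0 of the 9 genes were called.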

How the data were processed

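The tools named in the submitters' processing notes are DESeq2, featureCounts 1.5.0-p3 and HISAT2 2.0.5, and the build is GRCm38 (mm10). The deposited counts are unscaled whole numbers per gene. Deposited FPKM equals counts per gene length and library size, with sizes 0.953 to 1.074 times the summed counts, and was used for levels between genes, without tests. Strand use and the treatment of reads with several matches are not given in the sources used here.

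Counts were tested with edgeR 4.0.16 (R 4.3.3): filterByExpr with a least count of 10, TMM scaling, robust quasi-likelihood test on genotype, Benjamini-Hochberg adjustment over 13740 genes. Intervals use the SE implied by the F statistic and its degrees of freedom. Log2 CPM has a prior count of 2. Alternatives were RLE and upper quartile scaling, no filter, a filter of 1 CPM in all libraries, DESeq2 1.42.0, limma-voom (limma 3.58.1), no robust estimation, a replicate block, a term for sex and each library left out. Fits were tested on simulated counts. Chi-square per gene between replicates was 35.3 to 133, above counting noise.

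Members and gene lists were chosen with earlier results of these data known. Named from each list were called genes, the 3 with the smallest p and the 2 highest by FPKM; for Otc, the 5 nearest profiles. A gene of the list of glutamine and glutamate enzymes that the rule names is not reported here, though the list's counts include it. Gene coordinates of all 9 members equal those of GENCODE M21. Copies were sought with megablast among GENCODE M21 transcripts (at least 90% identity over 200 bases).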

Additional observations from a re-analysis of the deposited data

How the results depend on the processing

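Glud1, Arg2, Ass1, Prodh and Aldh18a1 kept their direction in all 15 alternative fits, with Glud1 between -0.70 and -0.50, and of the 9 enzyme genes Glud1 alone was called in any. The number of enzyme genes called was 1 with no filter, with DESeq2 and with the replicate block, in which Glud1 stood at -0.61 (adjusted p = 0.0196), and 0 in the other 12 fits. The median of the 9 ran from -0.05 to 0.03 over the alternatives. Genes near 0 changed sign: Asl was 0.01 with upper quartile scaling and with no filter, 0.03 without Maf.flox replicate 1 and 0.06 without Vil.Cre Maf.flox replicate 3, Cps1 was -0.03 without Vil.Cre Maf.flox replicate 3, and Otc and Oat were 0.03 and 0.02 without Vil.Cre Maf.flox replicate 1. Pycrl was -0.06 and 0.00 without replicate 2 of Maf.flox and of Vil.Cre Maf.flox. With each library left out, Cps1 ran from -0.03 to 0.27, Oat from -0.21 to 0.02, Otc from -0.11 to 0.03 and Pycrl from -0.06 to 0.11. Over all genes the calls numbered 75 (26 higher, 49 lower), and 365 (151, 214) with no filter, 760 (283, 477) with DESeq2, 34 (13, 21) with limma-voom, 440 (132, 308) with the replicate block and 38 (15, 23) with the sex term. The stricter filter left 29 lower calls. With a library left out they ran from 8 to 701 (4 to 124 higher, 2 to 577 lower), with 701 without Maf.flox replicate 3. The cause was not tested. Deviations from the group means had correlations of 0.0917, -0.0256 and 0.269 between libraries of one number, and a number was not treated as a pair. The replicate block also called Slc25a15 (0.0189), Slc7a9, Slc7a7 and Ddah1 (0.00339 each), Slc7a8 (0.0115), Slc3a1 (0.0355) and Slc6a19 (0.00102). A gene such as Ass1, with 93 to 168 counts per library, is the least precise of the 9.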
